A study of Mus musculus with 12 samples.

Results

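Hair matrix regulators and follicle ligands were followed in RNA-seq of mouse periocular skin. The set held 10 genes, taken as every row of the count table whose symbol was *Hoxc13*, *Foxn1*, *Msx2*, *Dlx3*, *Lef1*, *Shh*, *Wnt10a*, *Wnt10b*, *Bmp4* or *Fgf5*. All 10 were among the 21247 genes of the table, and all 10 were among the 20454 that reached 10 counts summed over the libraries and were tested. Whole biopsies of skin around the eye came from 6-week-old BALB/c mice given as female, with 4 libraries labelled ft/ft and 4 labelled ft/ftMyD88-/-. Both groups are homozygous for the flaky-tail allele ft, which arose spontaneously and inactivates *Flg*, the gene of the epidermal barrier protein filaggrin, and the ft stock used carries no matted (ma) mutation. The ft/ftMyD88-/- mice came from an in-house cross and also lack MyD88, the adaptor of toll-like receptors and the IL-1 receptor family, and the study describes the strain as a global knockout. WT libraries were not analysed here. A whole biopsy mixes epidermis, hair follicles, glands, dermis and muscle, so that fewer cells of a type and less RNA per cell cannot be told apart.

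The hair matrix is the pool of dividing cells at the base of a growing follicle that gives rise to the hair shaft and the inner root sheath. Wnt, BMP, hedgehog and FGF signals pass between the matrix and the dermal papilla, and homeobox and forkhead transcription factors turn on the hair keratin genes as matrix cells differentiate. Follicles cycle through growth (anagen), regression (catagen) and rest (telogen), and matrix genes are expressed mainly in growing follicles.

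Total counts ranged from 15802957 to 29255129 per library. Values are CPM, counts brought to a common library size with edgeR's TMM factors, and log2 fold changes are ft/ftMyD88-/- over ft/ft. *Xist* had at most 1 count in each ft/ft library and 34.6 to 66.8 CPM in the ft/ftMyD88-/- libraries, and the Y-linked *Ddx3y* ran from 54.2 to 73.2 CPM against 0 to 0.482 CPM. All mice were given as female, so the ft/ft libraries went against that label, and genotype and this sex-linked difference cannot be told apart in any result. *Myd88* itself was not lower in the ft/ftMyD88-/- libraries (41.2 ± 7.29 CPM against 30.7 ± 4.74 CPM, SD, n = 4 each, log2 fold change 0.42, edgeR adjusted p = 0.0484). The counts do not show whether the transcript carries the deletion.

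RefSeq (GRCm38.p6) start sites were found for 6 of the 10 members, namely *Foxn1*, *Msx2*, *Lef1*, *Wnt10b*, *Bmp4* and *Fgf5*. The 250 bases before the start are shown for the 3 members called higher that had an entry, written 5′ to 3′ on the gene's strand. *Msx2* lies on the minus strand (chr13:53472781-53473030), *Lef1* on the plus strand (chr3:131110047-131110296, 1 of 4 starts listed) and *Fgf5* on the plus strand (chr5:98253934-98254183). Capitals mark TAATTA, a core that many homeodomain proteins bind.
Msx2: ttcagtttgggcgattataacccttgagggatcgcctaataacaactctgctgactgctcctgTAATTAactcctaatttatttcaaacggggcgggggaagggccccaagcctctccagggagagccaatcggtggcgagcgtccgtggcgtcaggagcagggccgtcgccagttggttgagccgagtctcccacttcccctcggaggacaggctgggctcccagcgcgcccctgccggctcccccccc
Lef1: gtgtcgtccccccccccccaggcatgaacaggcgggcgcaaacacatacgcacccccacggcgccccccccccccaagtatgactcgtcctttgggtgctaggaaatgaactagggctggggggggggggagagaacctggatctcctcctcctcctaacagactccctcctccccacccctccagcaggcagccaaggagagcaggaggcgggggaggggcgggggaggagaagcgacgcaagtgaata
Fgf5: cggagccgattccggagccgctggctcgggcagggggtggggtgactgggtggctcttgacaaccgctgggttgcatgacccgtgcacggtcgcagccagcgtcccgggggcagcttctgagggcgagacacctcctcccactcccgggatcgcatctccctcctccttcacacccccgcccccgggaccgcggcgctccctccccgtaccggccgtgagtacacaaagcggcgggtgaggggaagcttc
Both strands were searched for TAATTA and for the other motifs named here. TAATTA was present in 4.84% of 32851 promoter windows of the same length, and *Msx2* (187 bases before the start) and *Foxn1* (29 bases before it) held it. CCAAT was present in 33.8% of windows and in the same 2 members. CTTTGAT, a core of sites bound by Lef1 and its relatives, was present in 3.21% of windows and in none of the 6 members with an entry. The variant CTTTGTT, present in 5.03% of windows, was also in none of these 6. Among the same 6 members the TATA box letters TATAAA, present in 12.4% of windows, stood only before another *Lef1* start. The G and C content of the 3 windows shown was 61.6%, 66.4% and 70.8%, against a median of 52.4% over all windows. A match is a description of letters and shows no binding.

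Among the 10 members, *Hoxc13*, *Msx2*, *Lef1* and *Fgf5* rose in ft/ftMyD88-/- skin, by 3.07-fold to 3.89-fold, and no member fell. These were 4 of 10, beside 10.9% of all tested genes called higher and 12.3% called lower by edgeR at an adjusted p under 0.05. At an unadjusted p under 0.05, 6 members were higher and 0 were lower in edgeR. The share of all tested genes at that unadjusted cut-off was not counted, here or for the lists below. DESeq2 called 5 members higher and 0 lower, beside 2861 and 2763 of all tested genes. Limma voom called 4 and 0, beside 2193 and 2490. The median log2 fold change of the members was 1.18, against 0.01 over all tested genes, and it was 0.68 without ft/ftMyD88-/- library 1. Scaling by library size only moved the median of all genes to 0.19, and the share of calls that were higher from 47.0% to 77.8%.

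**Figure D1:**
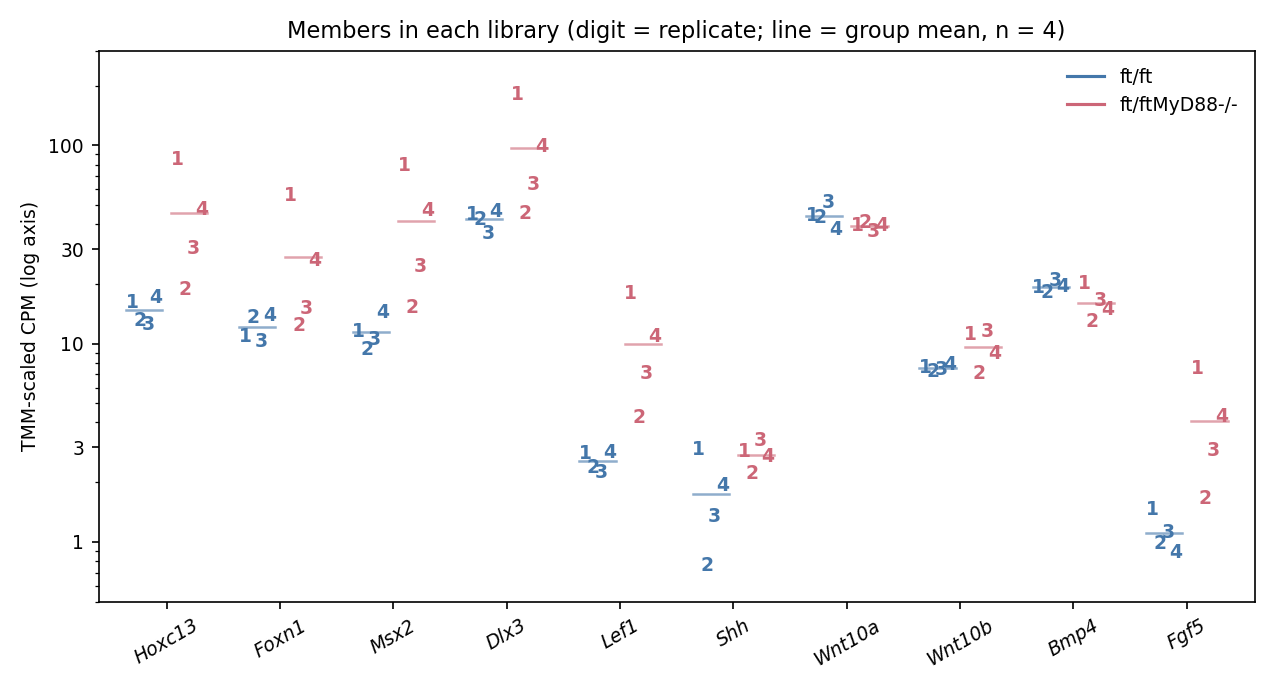
TMM-scaled CPM of each member (log axis) in every library, with the replicate number as the symbol, blue for ft/ft, red for ft/ftMyD88-/- and a line at each group mean (n = 4). *Hoxc13*, *Msx2*, *Lef1* and *Fgf5* have every red number above every blue one, while *Foxn1*, *Dlx3*, *Shh*, *Wnt10a*, *Wnt10b* and *Bmp4* overlap.

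Of the transcription factors, *Hoxc13* (chromosome 15, 102921131 to 102928814), a homeobox factor that directs hair keratin genes, measured 16.2, 13.0, 12.6 and 17.1 CPM in ft/ft libraries 1 to 4 and 84.8, 18.8, 30.1 and 47.7 CPM in ft/ftMyD88-/- libraries 1 to 4. Every ft/ftMyD88-/- library stood above every ft/ft library, with library 1 the highest and library 2 the nearest to ft/ft. The means were 45.3 ± 28.8 and 14.7 ± 2.28 CPM (SD, n = 4), a log2 fold change of 1.62 (SE 0.468, edgeR adjusted p = 0.0494). *Msx2* (chromosome 13, 53466881 to 53472780), a homeobox factor of the matrix and a BMP-responsive gene, measured 11.6, 9.35, 10.4 and 14.4 CPM in ft/ft and 79.1, 15.1, 24.6 and 47.0 CPM in ft/ftMyD88-/-. Its groups did not overlap either, with library 2 at 15.1 CPM just above the highest ft/ft library. Its log2 fold change was 1.85 (SE 0.532, edgeR adjusted p = 0.0494). Both calls lie at the threshold. *Hoxc13* lost its call in 6 of 8 fits without 1 library, keeping it only without ft/ftMyD88-/- library 1 (adjusted p = 0.0303) or library 2 (0.0102), and *Msx2* kept it only without library 2 (0.0125) or library 3 (0.0485). With the replicate number as a block, *Msx2* had an edgeR adjusted p of 0.0525.

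*Lef1* (chromosome 3, 131110297 to 131224357), the DNA-binding partner of beta-catenin in Wnt signalling, measured 2.79, 2.36, 2.23 and 2.84 CPM in ft/ft and 17.9, 4.23, 7.08 and 10.9 CPM in ft/ftMyD88-/-. The highest ft/ft library lay well below the lowest ft/ftMyD88-/- library. Its log2 fold change was 1.96 (SE 0.403, 95% interval 1.04 to 2.87, edgeR adjusted p = 0.00884), and it was called in all 18 alternatives, with adjusted p-values from 5.30e-07 to 0.0320. *Lef1* shares 1208 exon bases with *Gm43352* on the other strand, and the library kit named in the methods does not mark strand.

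*Foxn1* (chromosome 11, 78357577 to 78386783), the forkhead factor whose loss gives the nude mouse, measured 10.9, 13.5, 10.3 and 13.9 CPM in ft/ft and 56.0, 12.4, 15.0 and 26.2 CPM in ft/ftMyD88-/-. Library 2 of ft/ftMyD88-/- lay inside the ft/ft range, so the groups overlapped. The log2 fold change of 1.17 was not past the threshold (95% interval -0.03 to 2.36, edgeR adjusted p = 0.143), and without ft/ftMyD88-/- library 1 it was 0.55. *Dlx3* (chromosome 11, 95120117 to 95125296), a homeobox factor of the matrix and upper epidermis, measured 44.8, 42.5, 35.9 and 46.2 CPM in ft/ft and 181, 45.5, 63.4 and 98.6 CPM in ft/ftMyD88-/-. Library 2 again fell inside the ft/ft range. Its log2 fold change was 1.2 (95% interval 0.16 to 2.23, edgeR adjusted p = 0.0937), while DESeq2 called it (adjusted p = 0.0315) and so did edgeR without ft/ftMyD88-/- library 2 (0.0288).

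Of the ligands, *Fgf5* (chromosome 5, 98254184 to 98277033), which ends the growth phase of the hair cycle, measured 1.46, 0.98, 1.12 and 0.88 CPM in ft/ft and 7.45, 1.65, 2.89 and 4.27 CPM in ft/ftMyD88-/-. Its groups did not overlap, although ft/ft counts were low, from 20 to 34 per library. The log2 fold change was 1.86 (SE 0.421, 95% interval 0.93 to 2.80, edgeR adjusted p = 0.0102), and the call held without each single library. *Shh* (chromosome 5, 28456840 to 28467101), the hedgehog ligand of the matrix, measured 2.91, 0.76, 1.34 and 1.92 CPM in ft/ft and 2.85, 2.20, 3.23 and 2.68 CPM in ft/ftMyD88-/-. Library 1 of ft/ft sat among the ft/ftMyD88-/- libraries. The log2 fold change of 0.66 was not past the threshold (95% interval -0.05 to 1.38, edgeR adjusted p = 0.166), but edgeR called *Shh* higher without that library. Its exons share 446 bases with *9530036O11Rik* and 361 with *Gm26894* on the other strand, the latter at 43 counts over all libraries.

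*Wnt10b* (chromosome 15, 98770712 to 98778206), a Wnt ligand linked to the onset of hair growth, measured 7.59, 7.24, 7.36 and 7.86 CPM in ft/ft and 11.1, 7.09, 11.6 and 8.90 CPM in ft/ftMyD88-/-. Library 2 of ft/ftMyD88-/- was the lowest of all 8 libraries and the other 3 were above ft/ft. Its log2 fold change was 0.36 (95% interval 0.02 to 0.70, edgeR adjusted p = 0.112), and edgeR called it without that library and when scaled by library size only. *Wnt10a* (chromosome 1, 74792019 to 74804176), a Wnt ligand needed for hair and tooth development, measured 44.2, 43.4, 51.5 and 37.7 CPM in ft/ft and 39.6, 40.8, 36.9 and 39.6 CPM in ft/ftMyD88-/-. The ft/ftMyD88-/- libraries lay close together and overlapped ft/ft. Its log2 fold change was -0.17 with TMM (95% interval -0.39 to 0.04, edgeR adjusted p = 0.233) and 0.01 when scaled by library size only. *Bmp4* (chromosome 14, 46383525 to 46390669), a BMP ligand of the dermal papilla and matrix, measured 19.2, 18.2, 20.9 and 19.3 CPM in ft/ft and 20.1, 12.9, 16.5 and 14.9 CPM in ft/ftMyD88-/-. Library 1 of ft/ftMyD88-/- lay inside the ft/ft range and the other 3 were below it. Its log2 fold change was -0.27 (95% interval -0.55 to 0.02, edgeR adjusted p = 0.159), and without that library it was called lower (-0.39, edgeR adjusted p = 0.0352). It shares 89 exon bases with *Gm15217* on the other strand.

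**Figure D2:**
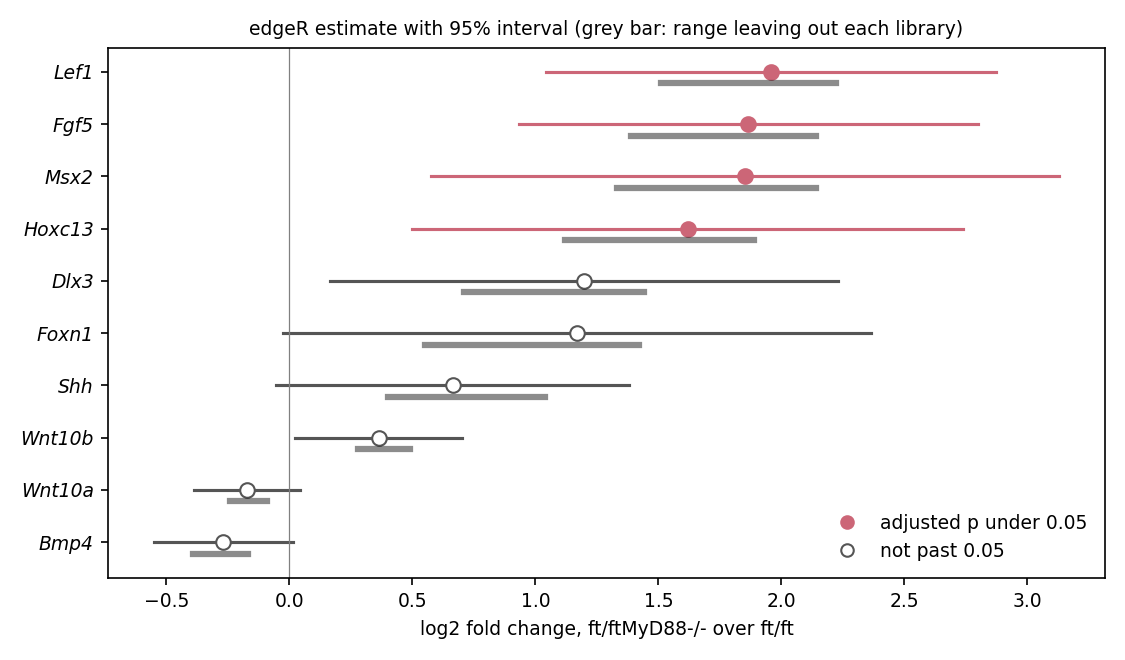
Log2 fold change of each member, ft/ftMyD88-/- over ft/ft, with its 95% interval (thin line) and the range over the 8 fits that each leave out 1 library (grey bar); filled points had an edgeR adjusted p under 0.05. The estimates run from -0.27 for *Bmp4* to 1.96 for *Lef1*.

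Of the members, 6 shared 1 order of the ft/ftMyD88-/- libraries, from library 1 through 4 and 3 to 2. These were *Hoxc13*, *Foxn1*, *Msx2*, *Dlx3*, *Lef1* and *Fgf5*, and the order was chosen after their values were seen. Of all tested genes, 5.22% had it. Library 1 stood at 7.0 times the ft/ft mean for *Lef1*, 6.92 for *Msx2*, 6.72 for *Fgf5*, 5.76 for *Hoxc13*, 4.61 for *Foxn1* and 4.28 for *Dlx3*. Library 2 stood at 1.65 times that mean for *Lef1* and at 1.02 for *Foxn1*, with the others between them. The coefficient of variation of these 6 genes was 10.7% to 22.6% in ft/ft and 59.0% to 73.0% in ft/ftMyD88-/-, whereas that of *Wnt10a* was 12.9% and 4.22%. Every ft/ftMyD88-/- library was above every ft/ft library for 4 members, beside 12.5% of tested genes.

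**Figure D3:**
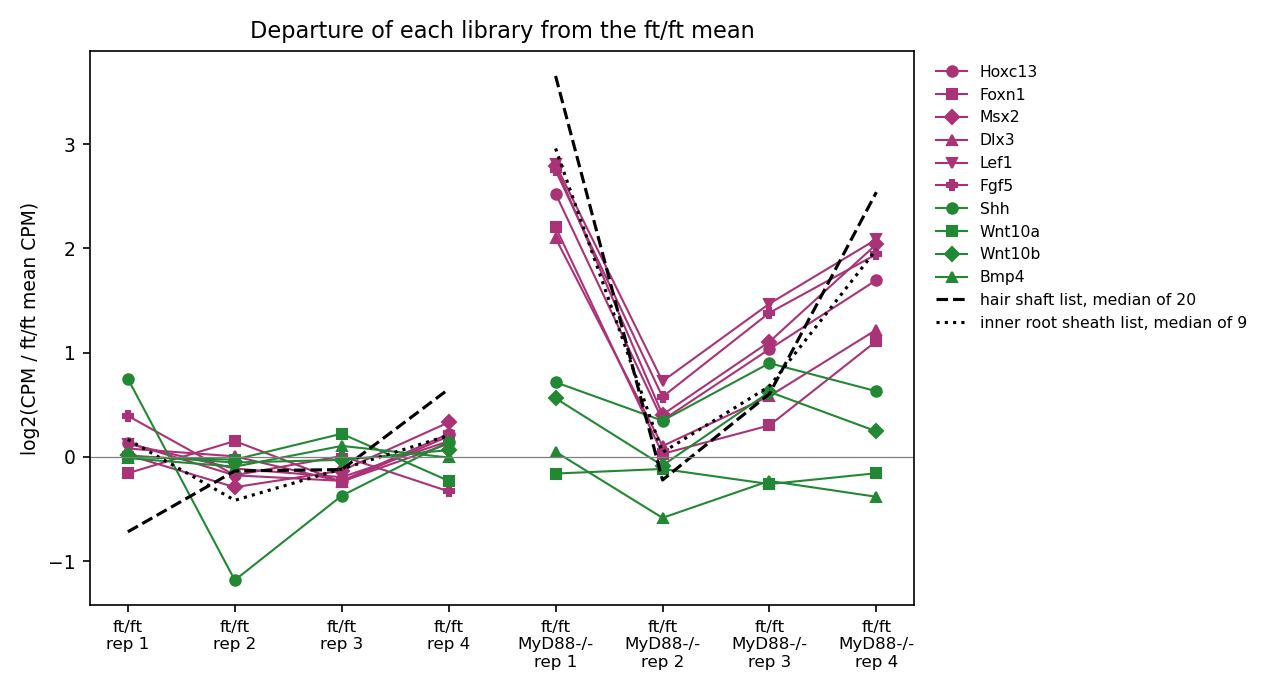
Log2 of CPM over the ft/ft mean for each member, and the median of the hair shaft and inner root sheath lists, in the 8 libraries (lines join libraries only to guide the eye). In ft/ftMyD88-/-, 6 members and both lists run from library 1 through 4 and 3 to 2. *Bmp4* is also highest in library 1 and lowest in library 2, with 3 above 4.

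Structural genes made downstream of the matrix showed the same order, in 19 of 20 hair shaft genes and 8 of 9 inner root sheath genes. Among the other pathway lists it was found in 4 of 7 homeobox relatives, 5 of 12 other follicle transcription factors and 4 of 16 other Wnt ligands. It was also found in 4 of 25 Wnt receptors and transducers, 3 of 10 Wnt target genes, 6 of 26 BMP and 2 of 17 FGF pathway genes. No Wnt inhibitor or hedgehog pathway gene had it. Summed hair shaft genes (hair keratins, keratin-associated proteins, *Padi3*, *S100a3* and *Dsg4*) ran from 319 to 720 CPM in ft/ft and were 6311, 452, 781 and 2725 CPM in ft/ftMyD88-/- libraries 1 to 4. Their median log2 fold change was 2.40, and 0 of 20 passed edgeR at an adjusted p under 0.05. At an unadjusted p under 0.05, 14 were higher in edgeR, with no share of all tested genes to set beside that count. The number passing the adjusted cut-off depended on the tool, since DESeq2 called 17 of the 20 higher and limma voom called 3. *Krt35*, an early cortex keratin, gave 2.31 (edgeR adjusted p = 0.0593) and *Krt83* gave 2.68 (0.121). Without ft/ftMyD88-/- library 1 these were 1.71 and 1.57. Inner root sheath genes summed to 1978 to 2792 CPM in ft/ft and to 16420, 2458, 3754 and 8818 CPM in ft/ftMyD88-/-, with a median log2 fold change of 1.81. None of the 9 (0) passed edgeR's adjusted threshold, 8 were higher and 1 lower at an unadjusted p under 0.05, and DESeq2 called 8 higher and limma voom 3. *Krt71* gave 1.54 (0.116) and *Tchh*, trichohyalin, 1.81 (0.0981), while *Gata3*, a sheath transcription factor, gave -0.28 (0.130). Without ft/ftMyD88-/- library 1, *Krt71* was at 0.95 and *Tchh* at 1.01.

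Levels per kilobase of exon take counts to scale with exon length. That was not tested, and the labels and the study's methods name different library protocols. On this scale, *Wnt10a* (17.9 CPM per kb) and *Dlx3* (16.2) stood highest in ft/ft and overlapped, followed by *Bmp4* (9.40), *Hoxc13* (5.98), *Msx2* (4.66), *Foxn1* (3.78) and *Wnt10b* (2.21). *Lef1* (0.729), *Shh* (0.609) and *Fgf5* (0.444) were lowest, and neighbours within that group overlapped, as did *Hoxc13* with *Msx2* and *Msx2* with *Foxn1*. In ft/ftMyD88-/-, *Dlx3* (37.3), *Hoxc13* (18.4), *Msx2* (16.9) and *Wnt10a* (15.9) led, and all neighbours in the order overlapped except *Bmp4* (7.80) and *Lef1* (2.86). The ratio of *Lef1* to *Hoxc13* per kilobase was 0.116 to 0.127 in ft/ft and 0.148 to 0.165 in ft/ftMyD88-/-, so *Lef1* moved more than *Hoxc13* in these libraries. The ratio of *Dlx3* to *Hoxc13* moved the other way, with 2.55 to 3.08 in ft/ft against 1.95 to 2.29 in ft/ftMyD88-/-.

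Likeness of profiles was measured by the root mean square distance of centred log2 CPM over the 8 libraries, among 14673 genes with a mean of at least 1 CPM. The genes closest to *Hoxc13* were *RP23-167G19.12* (0.0991) and *Ctse* (0.114), and those closest to *Msx2* were *Bambi* (0.0911), a BMP pseudoreceptor, and *Ggt1* (0.115). *Foxn1* was nearest to *Dclk3* (0.145) and *Dlx3* (0.146), and *Dlx3* to *Rtkn2* (0.120) and *Fam49a* (0.146). Both of the 2 nearest genes were members only for *Lef1*, with *Msx2* (0.169) and *Hoxc13* (0.179), and for *Fgf5*, with *Lef1* (0.207) and *Hoxc13* (0.246). *Shh* was nearest to *Fam26f* (0.251) and *Fbxl12* (0.291), *Wnt10b* to *Kcnk2* (0.101) and *Fam72a* (0.101), *Bmp4* to *Aplp2* (0.0637) and *Spry1* (0.070), and *Wnt10a* to *RP23-19E7.4* (0.0635) and *Cnn2* (0.0655).

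Among homeobox relatives of the members, 5 of 7 tested genes rose and none fell (edgeR adjusted p under 0.05). *Msx1* (1.29, edgeR adjusted p = 0.0104), *Dlx1* (1.89, 0.010), *Dlx2* (1.38, 0.00580) and *Dlx4* (1.99, 0.00960) did not overlap between groups, whereas *Dlx5* did not move past the threshold (-0.01, 0.981) and its sign turned under other scalings. The fifth, *Msx3*, was at 1 count in each ft/ft library against 0, 25, 8 and 12 counts in ft/ftMyD88-/-, and it was called in 2 of 8 fits without 1 library. Of 12 other follicle transcription factors, 4 rose and none fell: *Lhx2* (0.38), *Runx1* (0.75), *Trps1* (0.51) and *Vdr* (0.38), the vitamin D receptor needed for hair cycling. *Runx1* and *Trps1* were called in all 8 fits without 1 library, whereas *Lhx2* was called only without ft/ft library 4 or ft/ftMyD88-/- library 2, and *Vdr* only without library 2 of either group. Limma voom called 2 of the 12.

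Other Wnt ligands were mixed, with 2 of 16 higher and 3 lower. *Wnt7b* fell from 87.9 ± 9.87 to 37.8 ± 4.15 CPM (log2 fold change -1.22, edgeR adjusted p = 2.83e-05), with no overlap. *Wnt3* (-0.74) and *Wnt6* (-0.55), which neighbours *Wnt10a*, also fell. *Wnt6* lost its call without ft/ft library 3 or ft/ftMyD88-/- library 1 or 4. *Wnt11* rose (0.78, called in 3 of 8 fits without 1 library), and the counts of *Wnt8a*, the other gene called higher, were 2, 0, 2 and 0 in ft/ft libraries 1 to 4 against 38, 10, 15 and 16 in ft/ftMyD88-/-. Of 25 receptors and transducers 2 rose, *Tcf7* (0.95), a relative of *Lef1*, and *Fzd5* (0.78), and 5 fell, *Fzd9* (-1.59), *Lgr6* (-0.80), *Fzd8* (-0.43), *Fzd7* and *Wls*. Of these, *Fzd5* was called in 6 of 8 fits without 1 library, *Fzd7* in 4 and *Wls* in 2, and the others in 8. Of 13 inhibitors 1 rose (*Wif1*, 0.67) and 2 fell (*Frzb*, -1.17, and *Dkk2*, -0.64). *Frzb* lost its call without library 3 or 4 of ft/ft or library 1 or 4 of ft/ftMyD88-/-, *Wif1* without library 4 of either group, and *Dkk2* without ft/ftMyD88-/- library 1 or 4. Of 10 Wnt target genes only *Tcf7* passed, and *Axin2* gave -0.27 (edgeR adjusted p = 0.111).

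Of 14 hedgehog pathway genes tested, 7 had a positive and 7 a negative log2 fold change, with a median of 0.11. Among them the transcription factors *Gli1* (0.51), *Gli2* (0.58) and *Gli3* (0.68) and the antagonist *Hhip* (0.73) rose on the log2 scale (edgeR adjusted p from 0.00810 to 0.0262). *Gli2* and *Hhip* were called in 8 of 8 fits without 1 library, *Gli1* in 6 and *Gli3* in 4. *Cdon*, a coreceptor, fell (-0.73), and *Smo* gave -0.22 (edgeR adjusted p = 0.0656). In the BMP pathway 6 of 26 rose and 1 fell, with *Smad7* (1.07), an inhibitory Smad, *Bmp7* (0.36), *Smad1* (0.34), *Bambi* (1.81), *Smad6* (0.83) and *Bmp8a* (2.24) higher and the receptor *Acvr2b* (-0.80) lower. *Smad7*, *Smad1* and *Acvr2b* were called in 8 of 8 fits without 1 library, *Bmp7* in 7, *Smad6* in 4, *Bmp8a* in 3 and *Bambi* in 2. In the FGF pathway 5 of 17 rose and 3 fell. *Etv4* (1.42) and *Dusp6* (0.95), both targets of FGF signalling, rose with *Fgf10* (0.77), *Fgf7* (0.52) and *Spry4* (0.61), while *Fgf18* (-1.07), which holds follicles in rest, *Fgfr2* (-0.33) and *Spry2* (-0.30) fell. *Etv4*, *Dusp6*, *Fgf10* and *Fgf18* were called in 8 of 8 fits without 1 library, *Fgfr2* in 5, *Spry4* in 4, and *Fgf7* and *Spry2* in 2.

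**Figure D4:**
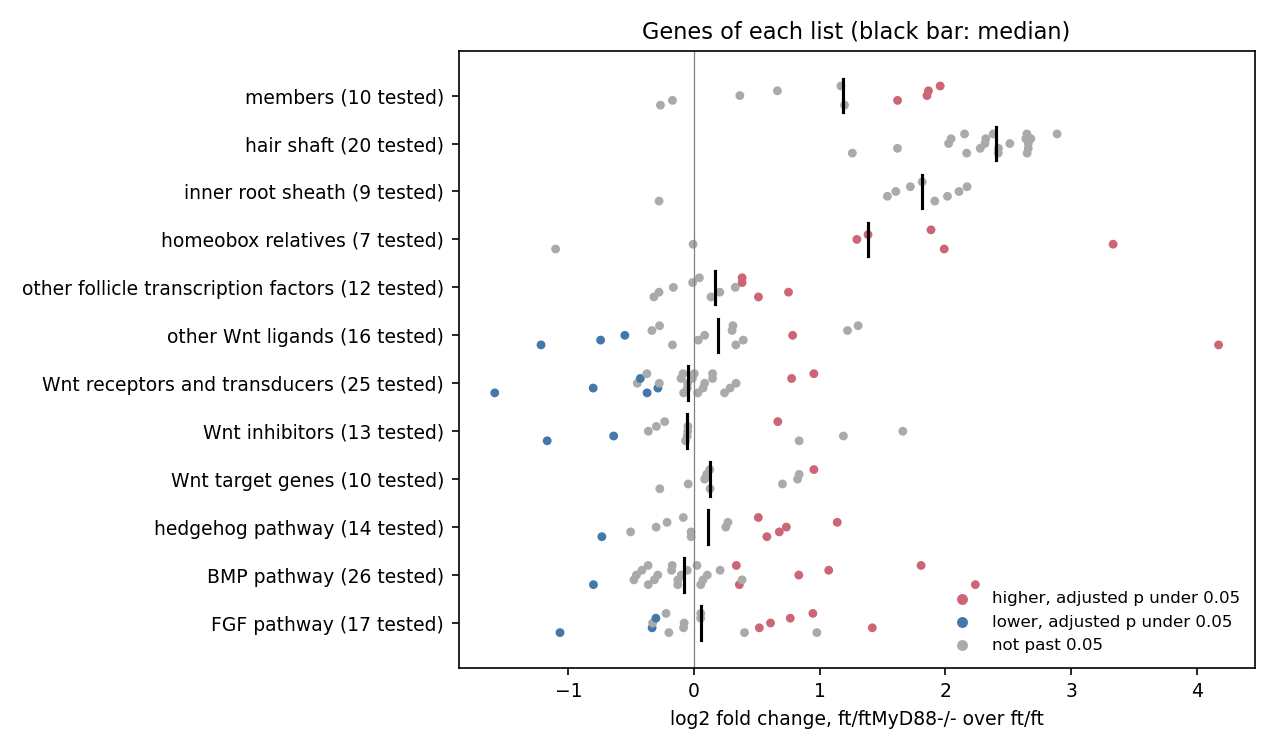
Log2 fold change of every tested gene of the members and the 11 pathway lists, ft/ftMyD88-/- over ft/ft, with a bar at the list's median and red or blue for an edgeR adjusted p under 0.05. Among these lists the medians run from -0.08 for the BMP pathway to 2.40 for the hair shaft list.

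Markers of some other cell types differed between the groups. Proliferation genes were higher in 6 of 8 (148.7 to 231.1 summed CPM in ft/ft, 274.9 to 349.9 in ft/ftMyD88-/-), and none of the 8 had the library order of the 6 members. T cell markers were higher in 4 of 4 (9.75 to 13.3 against 16.8 to 23.1) and neutrophil markers in 0 of 3 (18.8 to 244 against 393 to 952). Of these 3, 2 were higher at an unadjusted p under 0.05 in edgeR, and 2 were called by DESeq2 and by limma voom. The 2 past the unadjusted cut-off were *S100a8* and *S100a9*, while *Cxcr2* gave 0.28 (edgeR adjusted p = 0.383). *Ly6g* and *Retnlg* were not among the genes counted. Skeletal muscle markers were lower in 5 of 5 (7069 to 9537 against 2748 to 5103), sebocyte markers in 6 of 10 (9076 to 10360 against 6778 to 8930), fibroblast markers in 2 of 5 (8643 to 18620 against 4293 to 5861) and interfollicular epidermis markers in 3 of 7 (23440 to 30990 against 18460 to 22810). The 2 fibroblast markers were the collagens *Col1a1* (-1.60) and *Col1a2* (-1.49), while *Dcn* (-0.40), *Pdgfra* (0.31) and *Lum* (0.09) did not pass. Melanocyte markers were higher in 1 of 5 (*Mlana*), 3 of the 5 (*Dct*, *Pmel* and *Tyr*) had the library order of the 6 members, and their sums were 148.9 to 225.1 CPM in ft/ft and 269.7, 151.1, 173.6 and 245.4 CPM in ft/ftMyD88-/- libraries 1 to 4. Conjunctival markers were lower in 2 of 5, and 0 of 6 adipocyte and 0 of 4 macrophage markers passed edgeR, DESeq2 or limma voom, with 0 at an unadjusted p under 0.05. Hyperproliferative keratinocyte markers passed in 0 of 3 with edgeR (1 at an unadjusted p under 0.05) and in 1 with DESeq2 and limma voom. Beyond melanocytes, the order was found in 1 of 12 dermal papilla and 1 of 7 interfollicular epidermis markers and in none of the other marker lists. No marker in the table was at 0 in all libraries. Their part in the result was not tested.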

How the data were processed

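RNA-seq was analysed in 8 of 12 samples. The 4 WT libraries were not analysed here. The authors deposited raw counts per gene without normalization. According to the study's methods, polyA-selected TruSeq v2 libraries were aligned to GRCm38.p6 (HISAT, tophat2) and counted with HTSeq. The labels name instead a fixed-tissue protocol and Cell Ranger, and which applies was not tested. Versions, annotation release and strand setting are not given in the sources used here.

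No column of per-sample values was unused (0). Genes with at least 10 summed counts (20454 of 21247) entered edgeR 4.0.16 under R 4.3.3 (TMM, robust quasi-likelihood test, two-sided, Benjamini-Hochberg adjustment at 0.05), with no covariate. Standard errors came from the log2 fold change and F value. The biological coefficient of variation was 0.182. A count of 0 allows up to 3 counts, 0.102 to 0.183 CPM per library, for counting error only. Exon lengths came from GENCODE and positions from RefSeq, both on GRCm38. The study gives 4 mice per group, so each library was taken as 1 mouse.

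Alternatives were DESeq2 1.42.0, limma 3.58.1 voom, RLE, library size only, filterByExpr, no filter, a replicate block, single libraries left out, an adjusted p under 0.01 and a log2 fold change of 1 or more in size. Leaving out ft/ft 2 and ft/ftMyD88-/- 1 together was chosen after seeing the data. The fit was tested on simulated data before use.

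The members and gene lists were chosen with earlier results of these data known. Named list genes are up to 4 of each list with the smallest adjusted p under 0.05 and up to 2 others with the highest mean CPM, and the 2 nearest profiles of each member. *Gli1*, *Gli3*, *Msx3*, *Wnt11*, *Fzd5*, *Fzd7*, *Wls*, *Bambi* (as a BMP gene), *Smad6*, *Bmp8a*, *Fgf7*, *Spry4*, *Fgfr2*, *Spry2*, *Axin2*, *Padi3*, *S100a3*, *Dsg4*, *Mlana*, *Dct*, *Pmel*, *Tyr*, the neutrophil and fibroblast markers and the markers under the other observations were named outside that rule, after their values were seen. The result for 1 gene of the pathway lists is not reported here.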

Additional observations from a re-analysis of the deposited data

How the results depend on the processing

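Library size only gave 4638 genes higher and 1326 lower, an adjusted p under 0.01 gave 951 and 1350, and a log2 fold change of at least 1 gave 752 and 520. Without single libraries, genes higher ran from 1464 to 2260, members higher from 2 to 6 and members lower from 0 to 1. Members higher numbered 2 with no filter, 2 with ft/ft 2 and ft/ftMyD88-/- 1 left out together (1 lower, *Bmp4*) and 1 at an adjusted p under 0.01. With the replicate block, 3 members (*Hoxc13*, *Lef1*, *Fgf5*) and 1895 genes were higher and 2144 lower. Same-numbered libraries correlated at -0.146 to 0.0251, so the numbers did not pair them. Under library size only, the sign turned for *Wnt10a* (0.01), *Apcdd1* (0.11), *Bmpr2* (0.05), *Ctnnb1* (0.12), *Dlx5* (0.17), *Fgfr3* (0.10), *Gas1* (0.09) and *Kremen1* (0.12). It also turned for *Dlx5* with DESeq2 (0.00), filterByExpr (0.00) and RLE (0.01), and for *Bmpr1a* with both libraries left out (-0.03). Ranges without single libraries crossed 0 for *Apcdd1* (-0.11 to 0.03), *Ctnnb1* (-0.13 to 0.00), *Dlx5* (-0.08 to 0.13), *Fgfr1* (-0.02 to 0.15), *Gas1* (-0.15 to 0.07), *Kremen1* (-0.10 to 0.00) and *Wnt4* (-0.03 to 0.15). The cause was not tested. Low counts limit *Shh* and *Fgf5*, at 20 to 170 counts per library.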

Other observations

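Markers of the dermal papilla, the mesenchyme that signals to the matrix, were higher in 3 of 12 (edgeR adjusted p under 0.05, also 3 by DESeq2 and by limma voom), with summed levels of 150.1 to 218 CPM in ft/ft and 163.6 to 216.4 CPM in ft/ftMyD88-/-. *Inhba* rose by 0.92 on the log2 scale (4.48 ± 0.321 to 8.46 ± 2.67 CPM, SD, n = 4, edgeR adjusted p = 0.00604), *Corin* by 0.92 (0.0299) and *Alx4* by 0.54 (0.0276). *Inhba* was called in 8 of 8 fits without 1 library, *Alx4* in 4 and *Corin* in 3. Of 8 markers of the bulge, the stem cell niche of the follicle, 1 rose (*Lhx2*, called in 2 of 8 fits without 1 library and not by limma voom) and 3 fell. *Krt15* fell from 5037 ± 642.4 to 1964 ± 358.4 CPM, a log2 fold change of -1.36 (edgeR adjusted p = 1.30e-04), with no overlap between the groups, and *Nfatc1* gave -0.42 (0.0211). *Krt15* and *Fgf18*, the remaining gene, were called in 8 of those 8 fits and *Nfatc1* in 4. The other 4 bulge markers, *Cd34* (-0.17), *Lgr5* (0.08), *Sox9* (-0.01) and *Tcf7l1* (0.07), did not pass. In ft/ft, *Krt15* stood near the interfollicular epidermis markers *Krt5* (4994 CPM, log2 fold change -0.67) and *Krt14* (4718 CPM, 0.05). Which cells the *Krt15* counts came from was not tested.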
